A study of Rattus norvegicus with 9 samples.

Results

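The 10 genes described here belong to the Bcl2 family of survival and death proteins and were chosen by name. They are the survival genes Bcl2, Bcl2l1 and Mcl1, the effector genes Bax and Bak1, and the BH3-only genes Bid, Bcl2l11, Bmf, Bbc3 and Pmaip1. The deposited table lists 19085 genes and holds 1 row for each of the 10. All 10 passed the filter on low counts and were tested among 13256 genes.

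Proteins of this family decide whether the outer mitochondrial membrane stays intact. The effectors Bax and Bak open pores in that membrane and release cytochrome c, the survival proteins hold the effectors in check, and the BH3-only proteins bind and block the survival proteins or act on the effectors directly. In many cell types the ERK kinases, which MEK activates, mark the Bim protein encoded by Bcl2l11 for destruction, restrain its transcription through FoxO factors, hold down Bmf and stabilise the Mcl1 protein.

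Messenger RNA was sequenced from primary osteoblasts, cultured from the calvaria of male Sprague-Dawley rats 24 hours old and kept in osteogenic induction medium for 7 days. The 3 libraries of the control group came from that medium alone, the 3 of the thrombin group from medium with thrombin at 20 U/mL, and the 3 of the PD03 group from medium with thrombin at 20 U/mL and 0.1 μM PD0325901 (PD03), an inhibitor of MEK. The unit for PD03 is mM in a treatment protocol of the labels, and the tissue label reads knee although the growth protocol names the calvaria. No group received PD03 without thrombin, so PD03 against thrombin and PD03 against control both carry thrombin in 1 or both arms, and the 3 comparisons share libraries.

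Library totals lay between 15447832 and 19841468 counts. Of 7 osteoblast markers, Bglap and Ibsp stayed under 10 counts in every library, and the summed level of the list, made up mostly of Col1a1, ran from 44380 to 49350 CPM (counts scaled to library size) in control, 41320 to 44720 in thrombin and 71210 to 73180 in PD03 libraries. With thrombin, Spp1 was called higher (log2 fold change 1.54) and Alpl lower (-2.24, 6 counts in each thrombin library). Runx2 and Sp7 rose with thrombin (0.26 and 0.53) and Col1a1 fell (-0.15). In PD03 against thrombin, Col1a1 and Alpl were called higher (0.75 and 3.14), Runx2 and Spp1 lower (-0.67 and -1.80), and Sp7 gave -0.31. In PD03 against control, Col1a1 and Alpl were called higher (0.60 and 0.90), Runx2 and Spp1 fell (-0.42 and -0.26), and Sp7 gave 0.22. The sum of 4 chondrocyte and synovial markers was 89.9 to 100.4 CPM in control, 64.5 to 69.1 in thrombin and 76.8 to 83.0 in PD03 libraries. Most of that sum was Col2a1 (mean 84.3, 49.1 and 56.3 CPM), while Sox9 and Acan were called higher with thrombin (log2 fold change 0.89 and 1.29) and in PD03 against control (1.08 and 1.02), and Prg4 was called lower with thrombin (-1.19) and higher in PD03 against thrombin (2.00) and against control (0.81). The 4 myeloid markers summed to 1.07 to 1.41 CPM in control, 1.34 to 1.43 in thrombin and 1.77 to 2.78 in PD03 libraries, with Ptprc under 10 counts throughout and Csf1r called higher in PD03 against control (1.47). Of the endothelial list, the 3 markers in the table summed to 6.69 to 7.76 CPM in control, 6.30 to 8.50 in thrombin and 11.1 to 12.6 in PD03 libraries, with Pecam1 under 10 counts throughout. These marker levels moved with the groups, and their part in the values below was not tested. In bulk RNA, fewer cells of a type and less RNA per cell cannot be told apart.

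The promoters of 3 members are shown because Mcl1, Bcl2l11 and Bmf are the members with known ERK control and because Bcl2l11 and Bmf rose with PD03. Each sequence is the 250 bases before the RefSeq transcription start in the GRCr8 assembly, 5′ to 3′ on the gene's strand, with motif matches in capitals. The windows lie at chr2:185907918-185908167 on the + strand for Mcl1, at chr3:135819792-135820041 on the + strand for Bcl2l11 and at chr3:125974065-125974314 on the - strand for Bmf.

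Mcl1: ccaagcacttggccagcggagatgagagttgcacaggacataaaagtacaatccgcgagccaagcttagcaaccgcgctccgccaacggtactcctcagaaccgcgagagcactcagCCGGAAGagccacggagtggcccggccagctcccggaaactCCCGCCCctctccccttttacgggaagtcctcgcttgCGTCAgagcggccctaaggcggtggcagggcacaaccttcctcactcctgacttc

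Bcl2l11: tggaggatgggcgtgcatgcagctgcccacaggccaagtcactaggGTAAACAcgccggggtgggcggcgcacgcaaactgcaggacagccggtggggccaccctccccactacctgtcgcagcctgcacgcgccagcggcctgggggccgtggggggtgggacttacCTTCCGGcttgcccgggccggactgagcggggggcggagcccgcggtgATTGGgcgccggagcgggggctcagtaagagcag

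Bmf: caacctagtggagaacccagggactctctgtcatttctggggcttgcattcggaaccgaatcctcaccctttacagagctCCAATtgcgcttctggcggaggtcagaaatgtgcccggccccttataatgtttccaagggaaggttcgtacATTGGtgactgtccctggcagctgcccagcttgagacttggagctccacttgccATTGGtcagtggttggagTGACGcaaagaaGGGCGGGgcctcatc

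The motifs searched on both strands were GTAAACA (FoxO), TGANTCA (AP-1), TGACG (part of a CRE), CCGGAAG (ETS), CACGTG (E-box), GGGCGGG (GC box), CCAAT and the CArG box. Of 33469 rat promoter windows of the same length, FoxO was found in 3.21%, AP-1 in 6.34%, the CRE part in 18.2%, ETS in 7.27%, the E-box in 5.59%, the GC box in 21.0%, CCAAT in 34.0% and the CArG box in 1.5%. The Bcl2l11 window holds GTAAACA 204 bases before the start, an ETS match 82 bases before it and a CCAAT match. The Mcl1 window holds 1 ETS, 1 CRE and 1 GC box match, and the Bmf window holds 3 CCAAT, 1 CRE and 1 GC box match. No 2 matches in these windows share a base. RefSeq promoters were matched for 8 of the 10 members, 11 windows in all, and not for Bax and Bbc3. Bcl2l11 has the only FoxO match among these 11 windows, and whether this differs from the 3.21% of all windows was not tested. A match is a description of letters and not of binding.

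The levels of the members, compared per gene length as the deposited FPKM, spanned a wide range. Mcl1, a short-lived survival protein's gene, stood highest in each group at 97.9 ± 3.99 FPKM in control, 89.9 ± 1.82 in thrombin and 80.4 ± 0.98 in PD03 (mean ± SD, n = 3). Bax followed at 42.1 ± 1.98, 46.3 ± 3.54 and 35.5 ± 1.28 FPKM, and Bak1 at 27.2 ± 1.25, 22.9 ± 1.16 and 28.7 ± 1.42 FPKM. Bcl2, the founding survival gene, stood lowest in each group at 0.535 ± 0.159, 0.336 ± 0.0773 and 0.306 ± 0.0713 FPKM.

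Between these lay, in control, Pmaip1 at 14.4, Bbc3 at 9.35, Bcl2l1 at 7.27, Bcl2l11 at 6.18, Bid at 3.99 and Bmf at 1.73 FPKM, and no 2 neighbours in this order overlapped. In thrombin the order of the means was the same, but Bbc3 and Bcl2l1, and Bcl2l1 and Bcl2l11, overlapped between libraries. In PD03, Bcl2l11 at 7.87 ± 0.55 FPKM moved above Bbc3 at 7.80 ± 0.728 and Bcl2l1 at 5.02 ± 0.222 FPKM. The libraries of Bcl2l11 and Bbc3 overlapped there, as did those of Bid and Bmf.

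**Figure D1:**
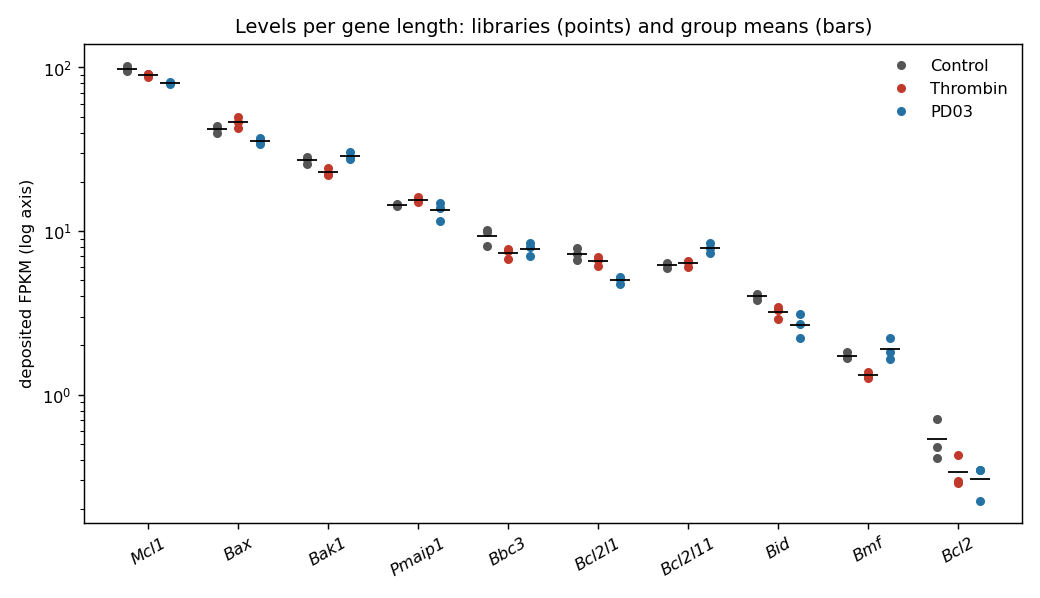
Deposited FPKM of the 10 members in the 9 libraries on a log axis, with points for libraries and black bars for group means. Mcl1 is highest and Bcl2 lowest in every group, and Bcl2l11 stands above Bcl2l1 in every PD03 library.

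A gene is called below when its adjusted p is under 0.05 and its log2 fold change is over 0.58 in size, and it is said to have risen or fallen when its adjusted p alone is under 0.05. In thrombin against control, 1 of the 10 members was called (8.06% of all tested genes were), and 6 passed on the adjusted p (28.7% of all), 1 higher (14.1% of all) and 5 lower (14.6% of all). In PD03 against thrombin, 1 was called (15.9% of all) and 5 passed (49.8% of all), 3 higher (25.3%) and 2 lower (24.5%). In PD03 against control, 1 was called (8.97% of all) and 6 passed (39.9% of all), 2 higher (19.7%) and 4 lower (20.2%). The count that passed was near the background for PD03 against thrombin in this fit. There it was 7 of 10 with library totals in place of TMM scaling (52.9% of all), with FPKM and 1 added (50.2%) and with FPKM and 0.1 added (50.5%). For thrombin against control it was above the background in this fit, but with DESeq2 it was 3 of 10 against 25.5% of all tested genes, and without thrombin library 2 it was 2 of 10 against 23.3%. For PD03 against control it was 6 of 10 against 39.9% in this fit, and 4 of 10 against 36.1% without PD03 library 2. In that comparison it was 7 of 10 with no filter on low counts (27.7% of all), library totals (46.7%) and FPKM with 0.1 added (43.6%). Whether the members differ from the share of all tested genes was not tested. The groups did not overlap in CPM for 6 of the 10 members in each comparison, against 40.3% of all tested genes in thrombin against control, 55.5% in PD03 against thrombin and 47.8% in PD03 against control. The members had median log2 fold changes of -0.18, -0.05 and -0.13 in the same order, and all tested genes together had -0.00603, 0.0109 and -0.00395.

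With library totals in place of TMM scaling, the median of all genes moved to -0.0877 in PD03 against thrombin and -0.12 in PD03 against control, so small changes in the PD03 libraries are relative to this choice. With edgeR's glmTreat, which tests the change against the 0.58 threshold itself, no member passed in any comparison.

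**Figure D2:**
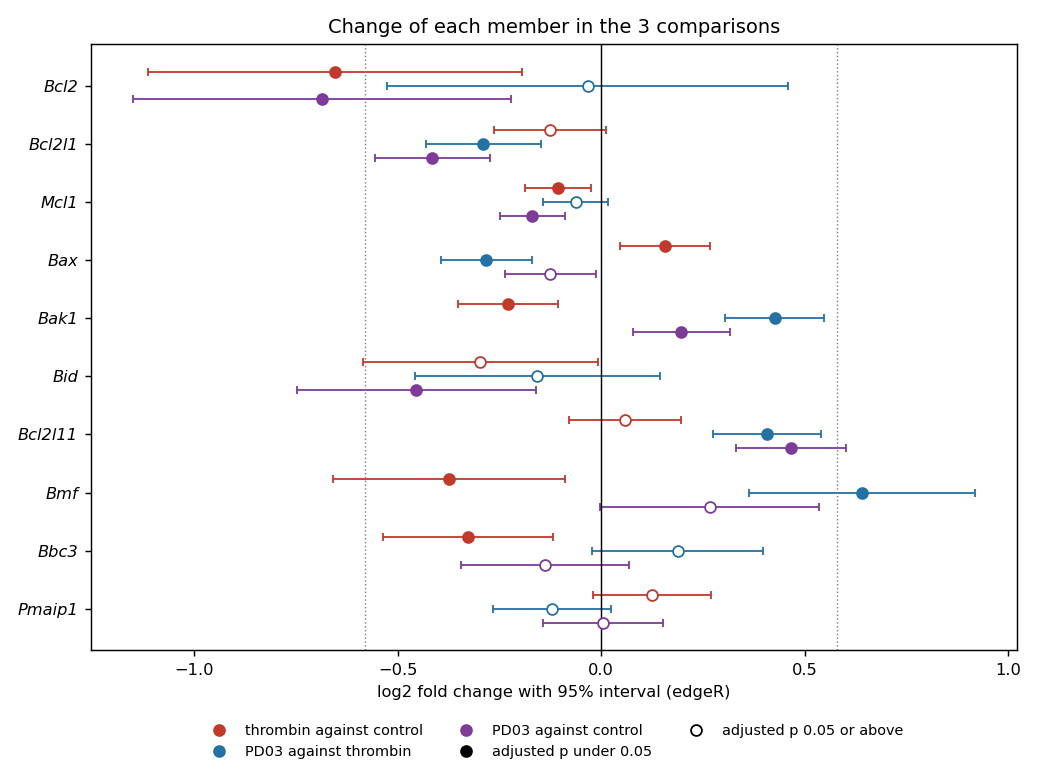
log2 fold change of the 10 members in the 3 comparisons with 95% intervals, filled where the adjusted p is under 0.05, and dotted lines at -0.58 and 0.58. Bcl2 lies lower with thrombin and with PD03 against control, while Bcl2l11, Bak1 and Bmf lie higher in PD03 against thrombin.

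Among the survival genes, Bcl2 was lower in both treated groups than in control. Its raw counts were 101, 51 and 59 in the control libraries, 38, 61 and 40 in thrombin and 55, 29 and 48 in PD03. In CPM these were 5.49, 3.22 and 3.72, then 2.26, 3.34 and 2.33, then 2.91, 1.88 and 2.94. Control library 1 was the highest of all 9, thrombin library 2 overlapped the control libraries, and the PD03 libraries all lay below control. With thrombin, Bcl2 fell by 0.65 in log2 units (SE 0.23, adjusted p = 0.0262, edgeR's quasi-likelihood test with Benjamini-Hochberg adjustment) and by 0.69 in PD03 against control (SE 0.23, adjusted p = 0.0146). PD03 and thrombin did not differ by the test (log2 fold change -0.03, 95% interval -0.53 to 0.46). The thrombin call rests on few counts and was lost without control library 1 (log2 fold change -0.39, adjusted p = 0.3), without thrombin library 1 or 3 (both adjusted p = 0.11) and with DESeq2 (adjusted p = 0.06). The call against control was lost without control library 1 (-0.42, adjusted p = 0.21) and without PD03 library 2 (-0.52, adjusted p = 0.098).

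Bcl2l1 encodes Bcl-xL and, from another splice form, the shorter Bcl-xS, which gene counts do not separate. Its level was 42.3, 39.9 and 47.1 CPM in control, 40.0, 36.9 and 41.7 in thrombin, and 33.5, 30.6 and 32.7 in PD03. The PD03 libraries all lay below both other groups, which overlapped. Bcl2l1 fell by 0.29 in PD03 against thrombin (SE 0.07, adjusted p = 0.000578) and by 0.42 against control (SE 0.07, adjusted p = 4.31e-06). Thrombin against control gave -0.13 (adjusted p = 0.177).

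Mcl1, whose protein binds Bim and Bak among others, changed little. Its level was 207, 198 and 195 CPM in control, 181, 188 and 188 in thrombin, and 179.8, 175 and 178 in PD03. The 3 groups did not overlap, with control highest and PD03 lowest. Mcl1 fell by 0.11 with thrombin (SE 0.04, adjusted p = 0.039) and by 0.17 in PD03 against control (SE 0.04, adjusted p = 0.000575), while PD03 against thrombin gave -0.06 (adjusted p = 0.192). The change with thrombin was small enough to lose the test in 10 alternatives, among them DESeq2 size factors and 6 of the fits without 1 library, and Mcl1 passed in PD03 against thrombin with library totals (-0.16, adjusted p = 0.000737).

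**Figure D3:**
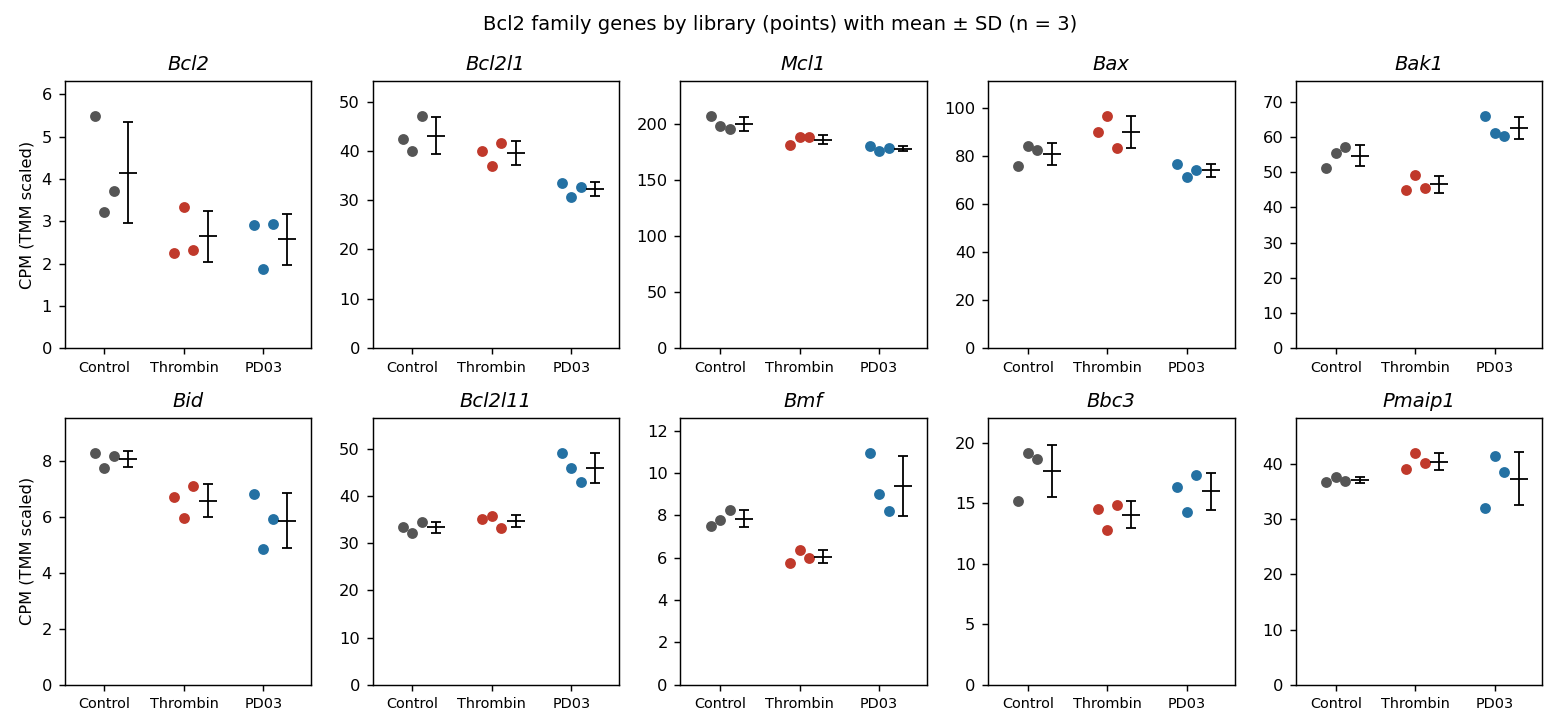
CPM of each member in the 9 libraries after TMM scaling, with the mean and SD of each group (n = 3) beside the points. Bcl2l11 and Bak1 stand highest in the PD03 libraries, Bcl2l1 lowest there, and Bax highest in the thrombin group's mean.

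The effectors moved in opposite directions. Bax was at 75.9, 84.4 and 82.8 CPM in control, 90.4, 96.9 and 83.4 in thrombin, and 76.8, 71.3 and 74.5 in PD03. Bak1 was at 51.3, 55.6 and 57.1 CPM in control, 45.0, 49.3 and 45.4 in thrombin, and 66.0, 61.2 and 60.4 in PD03. Thrombin library 3 overlapped the control libraries for Bax, while for Bak1 the 3 groups did not overlap, with thrombin lowest and PD03 highest.

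Bax rose by 0.16 with thrombin (SE 0.05, adjusted p = 0.0262) and Bak1 fell by 0.23 (SE 0.06, adjusted p = 0.00312). In PD03 against thrombin, Bax fell by 0.28 (SE 0.06, adjusted p = 3.41e-05) and Bak1 rose by 0.43 (SE 0.06, adjusted p = 8.75e-08). Against control, PD03 gave -0.12 for Bax (adjusted p = 0.0707) and a rise of 0.20 for Bak1 (SE 0.06, adjusted p = 0.00657). The rise of Bax with thrombin was lost without control library 1 (adjusted p = 0.177) and without thrombin library 2 (adjusted p = 0.231). It was also lost with FPKM values and 1 or 0.1 added (adjusted p = 0.098 and 0.096). The rise of Bak1 against control was lost with library totals (0.08, adjusted p = 0.269) and without control library 1 (0.15, adjusted p = 0.065). Both FPKM settings lost it too (adjusted p = 0.26 in each).

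Of the 5 BH3-only genes, Bcl2l11 and Bmf rose in PD03 against thrombin. Bcl2l11, which encodes Bim, was at 33.4, 32.2 and 34.5 CPM in control, 35.1, 35.8 and 33.2 in thrombin, and 49.2, 45.9 and 42.9 in PD03. Every PD03 library lay above every other library, and the other groups overlapped. Bcl2l11 rose by 0.41 against thrombin (SE 0.07, adjusted p = 1.34e-06), which is 1.33-fold, and by 0.47 against control (SE 0.07, adjusted p = 1.83e-07). Thrombin against control gave 0.06 (95% interval -0.08 to 0.20, adjusted p = 0.583). RefSeq places Acoxl across this gene. Acoxl had between 0 and 5 counts in each library, against 511 to 930 for Bcl2l11, which does not show to which gene shared reads were counted.

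Bmf, which ties to the cytoskeleton until released, was at 7.50, 7.76 and 8.27 CPM in control, 5.77, 6.36 and 6.00 in thrombin, and 10.96, 9.00 and 8.20 in PD03. Thrombin libraries lay below all others, and PD03 library 3 overlapped the control libraries. Bmf fell by 0.37 with thrombin (SE 0.14, adjusted p = 0.0415) and rose by 0.64 in PD03 against thrombin (SE 0.14, adjusted p = 0.000131), the sole call there. PD03 against control gave 0.27 (adjusted p = 0.11). The fall with thrombin lost the test in 12 alternatives, including DESeq2 (adjusted p = 0.083) and every fit without 1 control or thrombin library, and the rise stayed past the adjusted p but under 0.58 without PD03 library 1.

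Bid, which carries the death receptor signal to mitochondria, was at 8.32, 7.76 and 8.21 CPM in control, 6.72, 5.97 and 7.11 in thrombin, and 6.83, 4.85 and 5.93 in PD03. Control libraries lay above all others, which overlapped. Bid fell by 0.45 in PD03 against control (SE 0.15, adjusted p = 0.0107) but not by the test in thrombin against control (-0.30, adjusted p = 0.119) or PD03 against thrombin (-0.16, adjusted p = 0.399). Without PD03 library 2 the fall lost the test (adjusted p = 0.081).

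Bbc3 and Pmaip1 encode Puma and Noxa, BH3-only proteins controlled mainly through transcription. Bbc3 was at 15.2, 19.2 and 18.6 CPM in control, 14.5, 12.8 and 14.9 in thrombin, and 16.3, 14.3 and 17.3 in PD03. Thrombin lay below control without overlap, and PD03 overlapped both. Bbc3 fell by 0.33 with thrombin (SE 0.10, adjusted p = 0.0137), a change lost without control library 2, control library 3 or thrombin library 2, and gave 0.19 in PD03 against thrombin (adjusted p = 0.134) and -0.14 against control (adjusted p = 0.295).

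Pmaip1 was at 36.7, 37.7 and 36.9 CPM in control, 39.1, 42.0 and 40.1 in thrombin, and 32.0, 41.4 and 38.5 in PD03. Thrombin lay above control without overlap, and the PD03 libraries spread across both. Pmaip1 passed in no comparison, with 0.13 for thrombin against control (adjusted p = 0.204), -0.12 for PD03 against thrombin (adjusted p = 0.16) and 0.00 for PD03 against control (95% interval -0.14 to 0.15).

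The balance of members within a library is independent of how libraries are scaled. The Bax to Bcl2 ratio of raw counts was 20.8 ± 6.33 in control, 34.9 ± 5.56 in thrombin and 29.9 ± 7.01 in PD03 (mean ± SD, n = 3). Control and thrombin did not overlap, yet an exact permutation test, two-sided, gave p = 0.1 for that difference, which is the smallest p that 3 against 3 allows, and 0.2 adjusted over 6 tests. PD03 against thrombin gave an exact p of 0.3 and PD03 against control an exact p of 0.2 (adjusted 0.3 and 0.24).

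The Bcl2l11 to Mcl1 ratio was 0.161, 0.163 and 0.177 in control, 0.194, 0.19 and 0.177 in thrombin, and 0.274, 0.262 and 0.241 in PD03. Every PD03 library lay above all the others. Averaged on the log2 scale, the ratio was 1.38-fold higher in PD03 than in thrombin (exact permutation p = 0.1, adjusted 0.2). It was 1.55-fold higher in PD03 than in control (exact permutation p = 0.1, adjusted 0.2). In thrombin it was 1.12-fold higher than in control (exact permutation p = 0.2, adjusted 0.24). The Bax to Bak1 ratio, chosen after its values were seen and so given with no test, was 1.48 ± 0.0352 in control, 1.94 ± 0.0905 in thrombin and 1.19 ± 0.0399 in PD03, with no overlap between groups.

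**Figure D4:**
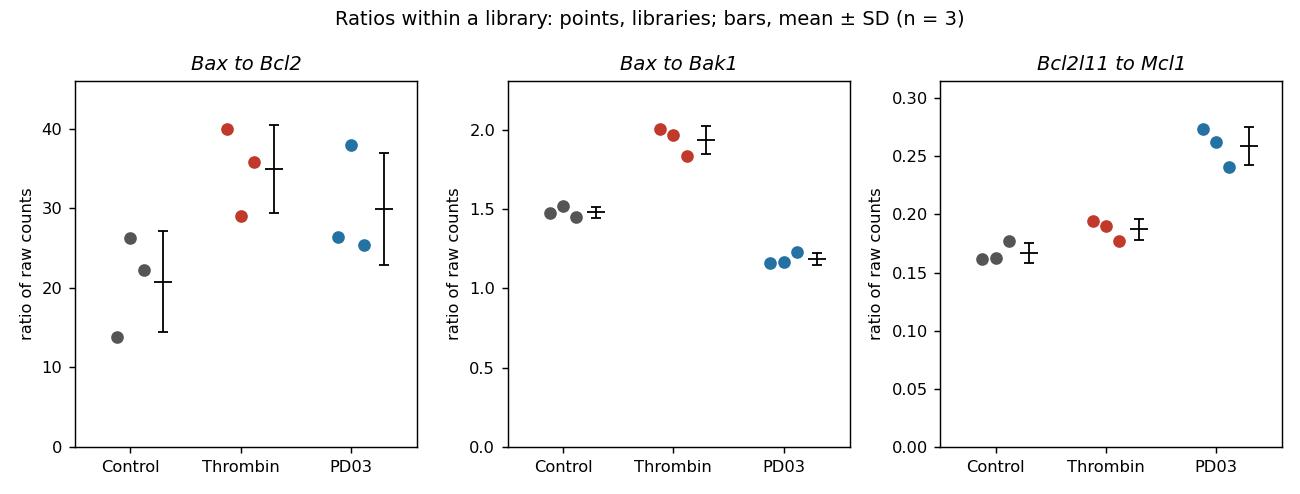
Ratios of raw counts in each library, with the mean and SD of each group (n = 3) beside the points. Bcl2l11 to Mcl1 is highest in the PD03 libraries, Bax to Bak1 is highest in thrombin and lowest in PD03, and Bax to Bcl2 overlaps between PD03 and both other groups.

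Other genes of the pathway were given by lists chosen by name. Of all tested genes, 8.06% were called in thrombin against control, 15.9% in PD03 against thrombin and 8.97% in PD03 against control. Of 13 other Bcl2 family genes 7 were tested and none was called, but Bok, a pore-forming relative of Bax, rose by 0.52 with thrombin (adjusted p = 6.98e-07) and by 0.50 in PD03 against control. Bcl2l2, a survival gene, rose by 0.33 in PD03 against control, and its rise of 0.20 against thrombin was lost with library totals (0.10, adjusted p = 0.168). The median of the list was 0.06, 0.08 and 0.02 in the 3 comparisons, which with library totals became -0.02 in PD03 against thrombin and -0.09 in PD03 against control.

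Of 17 apoptosome genes, caspases and inhibitors, 15 were tested. In PD03 against thrombin 6 fell and 2 rose (median -0.14), among them Birc5, which encodes survivin and fell by 0.58. Birc3, an inhibitor of caspase activation, was the sole called gene of the list, at -0.82 in PD03 against thrombin, after a rise of 0.47 with thrombin. In thrombin against control 3 rose and 1 fell (median 0.13), and in PD03 against control 2 rose and 4 fell (median -0.07). With library totals, 9 of the 15 fell and 0 rose in PD03 against thrombin, where 52.9% of all tested genes passed. Of 9 genes for partners and turnover of the members, such as the Vdac channels and the Mcl1 ligase Huwe1, none was called. In the 3 comparisons 1, 2 and 3 of these 9 passed (medians 0.06, -0.07 and -0.09), against 28.7%, 49.8% and 39.9% of all tested genes.

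Of the 7 FoxO and stress genes, 2 rose and 2 fell with thrombin, where 28.7% of all tested genes passed. In PD03 against thrombin 2 rose (49.8% of all passed), and in PD03 against control 3 rose (39.9% of all passed). The medians were 0.09, -0.04 and 0.14. With library totals, 1 rose and 2 fell in PD03 against thrombin (52.9% of all passed). In PD03 against control 1 rose and 1 fell with library totals (46.7% of all passed). Foxo1 fell by 0.52 with thrombin and rose by 0.78 in PD03 against thrombin, the latter a call. Foxo3, at group means of 46.5 to 51.6 CPM against 9.54 to 16.4 for Foxo1, passed in no comparison. Its log2 fold changes were -0.09 with thrombin, -0.06 in PD03 against thrombin and -0.15 in PD03 against control. Foxo4 fell by 0.21 with thrombin, rose by 0.20 in PD03 against thrombin and gave -0.01 in PD03 against control. Trib3 rose by 0.68 with thrombin, a call that was lost on leaving out control library 1 or 2 or thrombin library 2 or 3.

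The 15 ERK response genes all fell in PD03 against thrombin, where 24.5% of all tested genes fell. Of the 15, 12 were called (15.9% of all), and the median was -1.03 against 0.0109 for all tested genes. Egr1 fell by 3.70, Phlda1 by 2.70, Etv4 by 2.62 and Dusp6 by 2.40 on the log2 scale. In PD03 against control 13 fell (20.2% of all) and 1, Dusp4, rose (0.56, 19.7% of all rose). With thrombin 4 rose (14.1% of all) and 4 fell (14.6% of all), and Phlda1 at 0.98 and Dusp4 at 0.94 were called. The members ranged from -0.29 to 0.64 in PD03 against thrombin and from -0.69 to 0.47 in PD03 against control.

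**Figure D5:**
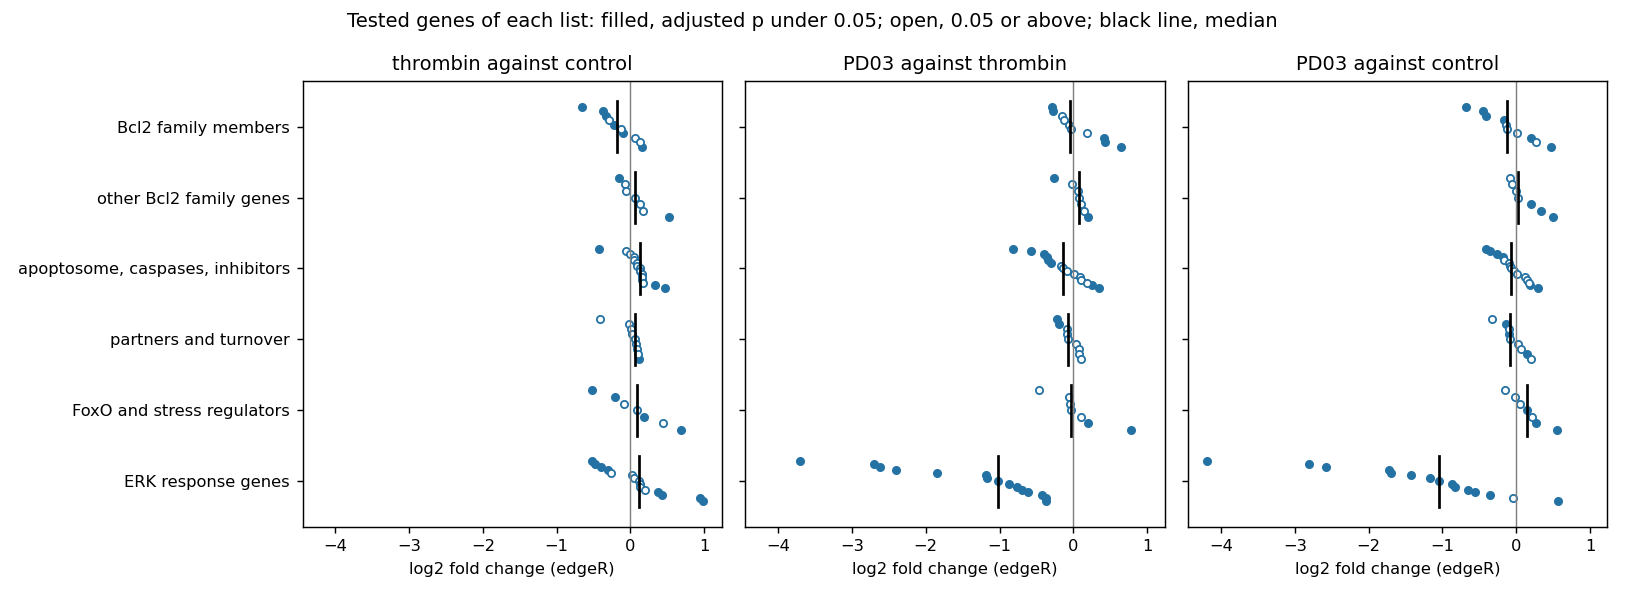
log2 fold changes of the tested genes in each list, one dot a gene, filled where the adjusted p is under 0.05, with the list median as a black line. The ERK response genes lie far below 0 in both PD03 panels (medians -1.03 and -1.04), whereas the Bcl2 family members lie within 0.69 of 0.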

How the data were processed

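The authors aligned reads with HISAT2. The paper names featureCounts and Rnor_6.0, whereas the submitters' processing notes name HTSeq 0.13.5 and mRatBN7.2, so the counter and build are uncertain. The authors deposited raw counts and FPKM values per gene and library. FPKM were used for levels between genes and as an alternative. No source used here states strandedness, so reads of overlapping genes cannot be told apart. RefSeq lists overlapping genes for Bcl2, Bcl2l1, Bak1 and Bcl2l11.

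Counts were analysed with R 4.3.3 and edgeR 4.0.16 (filterByExpr minimum 10, TMM scaling, 1 quasi-likelihood model over 9 libraries), with Benjamini-Hochberg adjustment over 13256 genes. DESeq2 1.42.0 and limma 3.58.1 were alternatives. The edgeR fit, DESeq2, limma voom, glmTreat and the replicate block were tested on data simulated for thrombin against control. The fit used for FPKM was tested there on CPM with 1 added. The other settings and the permutation test of the ratios were not tested on simulated data. P-values measure the spread between libraries. Replicates differed by more than counting noise, with a chi-square per degree of freedom of 1.815 to 3.993. In each group, library 1 differed more from libraries 2 and 3 (3.017 to 3.993) than these did from each other (1.815 to 2.135). The reason was not tested. No pairing by replicate number was seen in correlations of deviations from the group mean (-0.0456 to 0.0523 for equal numbers, -0.0563 to 0.0554 otherwise). These correlations weigh all tested genes alike, so counting noise can hide a shared effect, and they cannot exclude pairing. The members and lists were chosen with earlier results of these data known. All 10 members are named, as are at most 4 called genes of each list and comparison. Any other list gene was chosen after its values were seen. Some genes and 1 list are not reported.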

Additional observations from a re-analysis of the deposited data

How the results depend on the processing

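Calls of single members depended on the test and on the fold threshold. With thrombin against control, 0 members were called with DESeq2, with glmTreat and with FPKM with 1 or 0.1 added. With no fold threshold 6 were (28.7% of all tested genes), and 0 to 1 when libraries were left out in turn. With PD03 against thrombin, 0 were called with library totals, glmTreat and both FPKM settings, 5 with no fold threshold (49.8% of all), and 0 to 1 without single libraries. With PD03 against control, 0 were called with glmTreat and FPKM with 1 added, 6 with no fold threshold (39.9% of all), and 0 to 2 without single libraries. On the adjusted p alone, a count chosen after seeing the data, thrombin against control gave 3 with DESeq2 (25.5% of all tested genes passed there), 3 with FPKM and 1 added (25.0%), 3 with FPKM and 0.1 added (25.0%), and 2 to 6 without single libraries (23.3% to 30.5%), so that 3 of 10 is near the background. The same count under glmTreat was 0 in each comparison, with 0 members at an unadjusted p under 0.05, where 3.47%, 7.93% and 3.76% of all tested genes passed. Without single libraries the count on the adjusted p was 5 to 6 for PD03 against thrombin (44.6% to 49.8% of all tested genes). For PD03 against control it was 4 to 7 (34.9% to 40.3%).

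Directions reversed for Bcl2 in PD03 against thrombin without thrombin library 2 (0.16) and without PD03 library 2 (0.13), with a range of -0.14 to 0.16 over single libraries left out, and for Pmaip1 in PD03 against control, where the value was close to 0, with library totals (-0.11), no filter (-0.0056), limma voom (-0.0091), FPKM with 1 added (-0.11) and FPKM with 0.1 added (-0.11), and between -0.084 and 0.11 when libraries were left out in turn. Losses of single calls named in the text are given beside them in part. The calls of Bmf and Bcl2 were also lost in the settings named above in which 0 members were called. The ratios kept their direction in every alternative.

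With the replicate number as a block, 1 member was called in each comparison and 6, 5 and 6 passed, as without it. Of all tested genes 29.2%, 50.1% and 40.5% passed with the block. No pairing by replicate number was seen in the correlations given above, and the block changed no call of a member. The call for Bcl2 rests on 29 to 101 counts in each library, which limits its precision.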

Other observations

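For Bcl2l11, Bmf and Mcl1, the genes (tested, mean 10 CPM or more) whose log2 CPM most resembled theirs over the 9 libraries were found by Pearson's r, given as a description with no test, since the libraries share their groups and many genes follow the same group pattern. For Bcl2l11 these were Creld1 (r = 0.985), Ndufb2 (r = 0.984) and P3h4 (r = 0.982) of 8966 genes, and 448 genes had r over 0.9. For Bmf they were Fech (r = 0.976), Mydgf (r = 0.972) and the effector Bak1 (r = 0.971) of 8967 genes, of which 258 had r over 0.9. For Mcl1 they were Ctrl (r = 0.98), Zfp275 (r = 0.955) and Gpm6b (r = 0.952), with 43 genes over 0.9. Bmf and Bak1 both fell with thrombin and rose in PD03 against thrombin.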
